A study of Mus musculus with 8 samples.

Results

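After radiotherapy, lysates of radiation-resistant TC-1/IR tumours were set against lysates of their parental TC-1 tumours, protein by protein, on an antibody array for mouse cytokines. The comparison took in all 111 analytes of the array on 2 of the 8 membranes in the series, 1 membrane per line. Each analyte was printed as 2 spots, whose intensities were averaged. Averages under 2.49, which is 1% of the highest analyte average in the series, were set to that floor, and the difference between the lines was expressed as log2 of TC-1/IR over TC-1. The same lines without radiation gave a second pair of membranes, which share no membrane with the irradiated pair, so that each line difference could be sorted into those that remained, closed, reversed or opened with radiotherapy.

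TC-1 is a mouse tumour line that carries the E6 and E7 oncogenes of a human papillomavirus, and TC-1/IR was derived from it as a line that resists radiation. Ionising radiation kills tumour and immune cells and induces cytokines and chemokines in those that survive. Among the cytokines of an irradiated tumour are interferon-γ, the chemokines CXCL9, CXCL10 and CXCL11 that it induces to attract T cells, and cytokines of the IL-1 and IL-6 families that recruit and activate myeloid cells. Chemokines draw in leukocytes through G-protein-coupled receptors, and each leukocyte type carries its own receptor set.

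The irradiated groups compared were TC-1/IR RT and TC-1 RT, and the unirradiated groups set beside them were TC-1/IR buffer and TC-1 buffer. A further pair, TC-1/IR RT and IL-7 and TC-1 RT and IL-7, also received recombinant human IL-7-hyFc at a dose of 50 µg, given on days 0 and 7. The last pair, TC-1/IR IL-7 and TC-1 IL-7, received the same IL-7 doses without radiation. Its membranes entered the floor, the median centring and the fit across all 8 membranes. All hosts were female C57BL mice listed as 10 weeks old, bearing 1 tumour line under the skin of the right thigh, from 300000 TC-1/IR cells or 100000 TC-1 cells. The number of cells inoculated differed with the line, so the 2 cannot be told apart. Treatment began at a volume near 100 mm3, 8 to 10 days after inoculation. Radiation was gamma radiation to the whole body, 2 Gy a day for 4 days, so the immune cells of the host were irradiated with the tumour. The sample titles call each lysate pooled while the design text speaks of individual mice, and each group had 1 membrane either way. No difference between 2 membranes therefore has a replicate check, and the standard errors (SE) given beside log2 ratios come from the duplicate spots and cover the spread within a membrane only.

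The 2 irradiated membranes had similar totals, with analyte averages summing to 1473 for TC-1/IR RT and 1252 for TC-1 RT. Their unirradiated counterparts did not, at 765 for TC-1/IR buffer and 1204 for TC-1 buffer. The number of analytes above the floor was 64 for TC-1/IR RT and 86 for TC-1 RT, against 38 for TC-1/IR buffer and 68 for TC-1 buffer. Over the 28 analytes above the floor on all 8 membranes, the membrane medians differed by 0.13 log2 between the irradiated lines and by -0.77 log2 between the lines given buffer. Median centring on those 28 analytes removes this difference, and results are given both as deposited and after centring wherever the 2 part. The median coefficient of variation between duplicate spots was 11.1% for TC-1/IR RT and 6.13% for TC-1 RT. E6 and E7 were not analysed here, so the tumour line itself was not checked against its oncogenes.

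A protein was called higher or lower where the membranes differed by at least 1.5-fold, at least 1 average exceeded the floor and the duplicate spots of the 2 membranes did not overlap. By this rule of size, irradiated TC-1/IR tumours were higher in 12 of 90 measured proteins (13.3%) and lower in 33 (36.7%). Serpin F1, complement factor D, CD14, osteopontin and pentraxin 2 were among the higher ones. IL-11, IL-7, LIF, CXCL9, IL-1ra and interferon-γ were among the lower ones. In a lysate of whole tumour, fewer cells of a type and less protein per cell cannot be told apart.

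The remaining 45 measured proteins did not meet the rule, and 21 of the 111 were at or below the floor on both irradiated membranes. Of the 90 measured proteins, 60 exceeded the floor in both lines, 4 in TC-1/IR alone and 26 in TC-1 alone. For 15 of the 33 lower calls and 1 of the 12 higher calls the dimmer membrane was at the floor, and the fold is given as a lower bound. The median log2 ratio was -0.40 over all 90 and -0.18 over the 60 above the floor in both lines, 22 of which were positive and 38 negative. After median centring, 10 of 81 were higher (12.3%) and 31 lower (38.3%). Of the proteins called as deposited, 10 of the 12 higher and 27 of the 33 lower kept their call. The 2 higher calls lost with centring were IL-10 and tissue factor, at 0.57 and 0.51 log2.

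**Figure D1:**
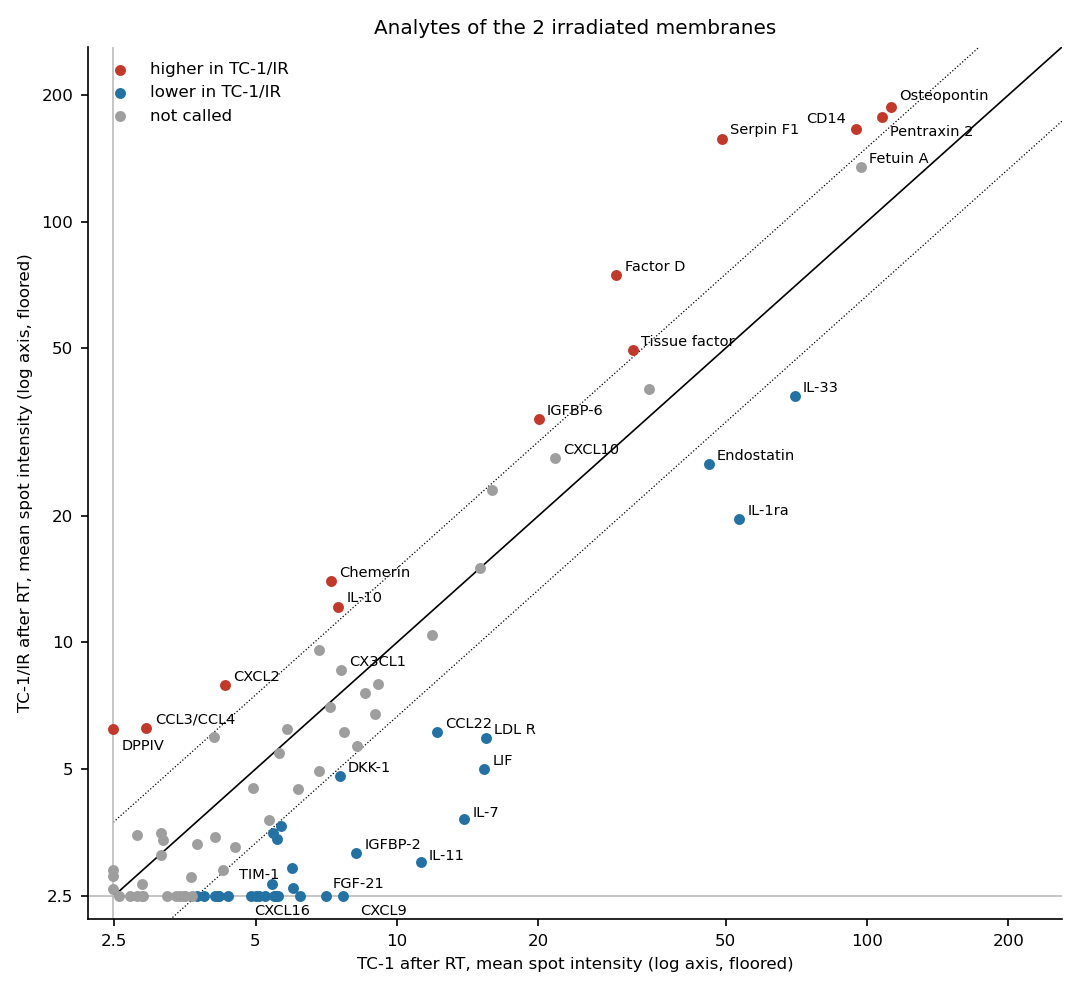
Average spot intensity of each measured analyte in irradiated TC-1/IR tumours (vertical axis, log scale) against irradiated TC-1 tumours (horizontal axis, log scale), 1 membrane per line, with values under 2.49 drawn at 2.49 and dotted lines at 1.5-fold. The 12 proteins called higher lie mostly among bright analytes (median intensity over the 2 membranes 33.8), and those called lower lie mostly among dim ones (median 4.31 over all 33).

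The protein with the largest difference upwards was Serpin F1, also called PEDF, a secreted serpin known as an inhibitor of angiogenesis. Its duplicate spots read 163 and 152 in irradiated TC-1/IR tumours, against 47.9 and 50.3 in irradiated TC-1 tumours. The ratio was 3.21-fold, or 1.68 ± 0.06 log2 (SE of the spots). With buffer the averages were 78.4 in TC-1/IR and 53.1 in TC-1, a ratio of 0.56 log2 that fell just short of the rule. The ratio was above 0 in both pairs, and Serpin F1 was 2.01-fold higher in irradiated than in buffer-treated TC-1/IR tumours as deposited. After centring that difference was 1.12-fold and not called, and the buffer ratio was 1.33 log2 and met the rule, so Serpin F1 counted as a difference that remained on that scale.

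Complement factor D, or adipsin, is the serine protease that starts the alternative complement pathway. Its spots read 76.9 and 72.6 in irradiated TC-1/IR tumours, against 29.7 and 28.9 in irradiated TC-1 tumours, a ratio of 2.55-fold or 1.35 ± 0.05 log2. With buffer it averaged 24.6 in TC-1/IR and 33.2 in TC-1, a ratio of -0.43 log2. Irradiated TC-1/IR tumours had 3.03-fold more factor D than TC-1/IR tumours given buffer, whereas TC-1 tumours differed 1.13-fold in the other direction, which did not meet the rule. After centring the ratio was 1.22 log2 after radiotherapy and 0.34 log2 with buffer, above 0 in both pairs, and irradiated TC-1/IR tumours had 1.70-fold more factor D than those given buffer. Factor D and Serpin F1 were the only higher calls made under all 9 ways of processing that were tried. The 9 include the main way and another that let spots overlap, which changed no call in either pair.

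Chemerin, CXCL2, CCL3 with CCL4 and the chemokine-trimming enzyme DPPIV were higher in irradiated TC-1/IR tumours, while other attractants of leukocytes (CXCL9, CXCL16, CCL22, CCL11 and CCL6) were lower. Chemerin, which attracts cells bearing the receptor CMKLR1, had spots of 13.9 and 14.0 in TC-1/IR RT against 7.26 and 7.18 in TC-1 RT (0.95 ± 0.01 log2). CXCL2, a neutrophil attractant acting on CXCR2, had spots of 8.88 and 6.94 in TC-1/IR RT against 3.30 and 5.30 in TC-1 RT (0.88 ± 0.38 log2). CCL3 and CCL4, chemokines made by activated macrophages and T cells that share 1 pair of spots on this array, read 5.04 and 7.50 in TC-1/IR RT against 2.91 and 2.95 in TC-1 RT (1.10 ± 0.28 log2). The spots of CXCL2 and of CCL3 with CCL4 were far apart within a membrane, so their ratios carry wide errors. DPPIV, also known as CD26, is a peptidase that acts at the amino end. It had spots of 4.54 and 7.92 in TC-1/IR RT against 1.91 and 2.39 in TC-1 RT, which is at least 2.5-fold higher since TC-1 lay under the floor.

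The other higher proteins included those with the brightest spots. CD14, the lipopolysaccharide co-receptor of myeloid cells, read 164 and 168 in TC-1/IR RT against 94.0 and 95.7 in TC-1 RT (0.80 ± 0.02 log2). Osteopontin, a matricellular phosphoprotein, read 186 and 190 in TC-1/IR RT against 112 and 113 in TC-1 RT (0.74 ± 0.02 log2). Pentraxin 2, or serum amyloid P, a plasma protein made in the liver, read 183 and 171 in TC-1/IR RT against 112 and 103 in TC-1 RT (0.72 ± 0.08 log2). None of these 3 proteins had overlapping spots, and each differed between the irradiated lines by 1.65-fold to 1.75-fold. IGFBP-6, which binds insulin-like growth factor II, averaged 33.9 in TC-1/IR RT and 20.02 in TC-1 RT (0.76 ± 0.04 log2). Tissue factor, the initiator of coagulation, averaged 49.5 in TC-1/IR RT and 31.8 in TC-1 RT (0.64 ± 0.01 log2). IL-10, a cytokine that restrains macrophages and dendritic cells, averaged 12.2 in TC-1/IR RT and 7.49 in TC-1 RT (0.70 ± 0.08 log2).

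IL-11 and LIF, cytokines that signal through gp130, the receptor subunit of the IL-6 family, were among the lower proteins. IL-11 had spots of 3.43 and 2.59 in TC-1/IR RT against 11.4 and 11.01 in TC-1 RT, a difference of 3.73-fold or -1.90 ± 0.20 log2. LIF had spots of 5.39 and 4.63 in TC-1/IR RT against 15.4 and 15.3 in TC-1 RT, a difference of 3.06-fold or -1.62 ± 0.11 log2. Both were lower in TC-1/IR in the buffer pair too, by 2.69-fold for IL-11 and 2.93-fold for LIF. As deposited neither differed by 1.5-fold between irradiated and buffer-treated tumours of either line. After centring IL-11 was 1.97-fold and LIF 1.63-fold lower in irradiated than in buffer-treated TC-1/IR tumours.

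The IL-1 family was lower as well. IL-1ra, the natural antagonist of the IL-1 receptor, had spots of 19.7 and 19.7 in TC-1/IR RT against 55.0 and 51.9 in TC-1 RT, a difference of 2.72-fold or -1.44 ± 0.04 log2. IL-33, an alarmin stored in the nucleus of epithelial and stromal cells, had spots of 38.5 and 38.5 in TC-1/IR RT against 67.4 and 72.9 in TC-1 RT (-0.87 ± 0.06 log2). IL-1α averaged 2.43 in TC-1/IR RT and 5.58 in TC-1 RT, at least 2.24-fold lower. IL-1β averaged 0.885 in TC-1/IR RT and 4.09 in TC-1 RT, at least 1.64-fold lower. With centring IL-1β lost its call, and IL-1ra, IL-33 and IL-1α kept theirs.

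IL-7, a common gamma chain cytokine that keeps lymphocytes alive, had spots of 3.50 and 4.09 in TC-1/IR RT against 13.5 and 14.4 in TC-1 RT. That is 3.67-fold lower in TC-1/IR, or -1.87 ± 0.12 log2, in tumours that received no recombinant IL-7. IL-4, a cytokine of type 2 helper T cells, averaged 1.47 in TC-1/IR RT and 5.49 in TC-1 RT, at least 2.2-fold lower. IL-15, the third measured cytokine of this receptor family, averaged 10.4 in TC-1/IR RT and 11.9 in TC-1 RT (-0.19 ± 0.30 log2) and did not meet the rule.

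Interferon-γ and 1 of the chemokines it induces were lower in irradiated TC-1/IR tumours, while the other 2 such chemokines did not meet the rule. Interferon-γ had spots of 0.77 and 0.67 in TC-1/IR RT against 5.35 and 5.73 in TC-1 RT, at least 2.22-fold lower. CXCL9 had spots of 1.95 and 1.74 in TC-1/IR RT against 6.87 and 8.50 in TC-1 RT, at least 3.09-fold lower. CXCL10 averaged 27.4 in TC-1/IR RT and 21.7 in TC-1 RT (0.34 ± 0.12 log2), and CXCL11 averaged 3.31 in TC-1/IR RT and 3.75 in TC-1 RT (-0.18 ± 0.10 log2). All 3 chemokines bind the receptor CXCR3 on T and NK cells. CXCL16, the ligand of CXCR6, had spots of 1.72 and 1.93 in TC-1/IR RT against 6.35 and 6.10 in TC-1 RT, at least 2.5-fold lower. The type III interferons IL-28A and IL-28B, which share 1 pair of spots, averaged 2.92 in TC-1/IR RT and 5.98 in TC-1 RT (-1.04 ± 0.15 log2).

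Factors known from epithelial stress and repair formed another lower group. FGF-21, a hormone induced by metabolic stress, had spots of 1.49 and 1.12 in TC-1/IR RT against 7.12 and 7.00 in TC-1 RT, at least 2.84-fold lower. TIM-1, a kidney injury molecule that is also found on lymphocytes, had spots of 2.92 and 2.31 in TC-1/IR RT against 6.5 and 5.51 in TC-1 RT (-1.20 ± 0.21 log2). Reg3G, an antimicrobial lectin of epithelia, averaged 2.5 in TC-1/IR RT and 5.24 in TC-1 RT (-1.07 ± 0.14 log2). GDF-15, a stress-induced member of the TGF-β superfamily, was at least 2.04-fold lower. Amphiregulin, a ligand of the EGF receptor, averaged 3.40 in TC-1/IR RT and 5.55 in TC-1 RT (-0.71 ± 0.02 log2).

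LDL R and IGFBP-2 were also among the 10 largest differences downwards. LDL R, the low-density lipoprotein receptor, had spots of 6.56 and 5.28 in TC-1/IR RT against 16.4 and 14.6 in TC-1 RT (-1.39 ± 0.18 log2). IGFBP-2, a carrier of insulin-like growth factors, had spots of 2.90 and 3.40 in TC-1/IR RT against 8.43 and 7.92 in TC-1 RT (-1.38 ± 0.12 log2). Of the 5 measured IGF binding proteins, IGFBP-2 and IGFBP-5 were lower, IGFBP-6 was higher, and IGFBP-1 and IGFBP-3 did not meet the rule. Lower calls made under all 9 ways of processing numbered 7, and these were IL-11, IL-7, LIF, CXCL9, IL-1ra, LDL R and IGFBP-2.

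The lower proteins that follow were dim and acted in several systems. Others that were lower, among them endostatin, CCL22, DKK-1 and IL-12, are described further below. Gas 6, a ligand of the TAM receptors, averaged 2.67 in TC-1/IR RT and 5.43 in TC-1 RT (-1.03 ± 0.60 log2), with spots of 3.78 and 1.55 in TC-1/IR that lay far apart. The eosinophil attractant CCL11 averaged 3.53 in TC-1/IR RT and 5.45 in TC-1 RT (-0.63 ± 0.16 log2). IL-27 p28 was at least 2.01-fold lower, G-CSF at least 1.96-fold, IGFBP-5 at least 1.75-fold, CCL6 at least 1.68-fold and PD-ECGF at least 1.67-fold. IGFBP-5, CCL6 and PD-ECGF lost their calls with centring, as did chitinase 3-like 1 and CD160. These last proteins lay near the 1.5-fold limit, chitinase 3-like 1 at 1.56-fold and CD160 at 1.51-fold, and IL-13 at 1.48-fold and IL-5 at 1.47-fold lay just outside it. On the higher side tissue factor lay just inside at 1.56-fold and RBP4 just outside at 1.46-fold.

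With buffer in place of radiation, TC-1/IR tumours were higher in 3 of 72 measured proteins (4.17%) and lower in 37 (51.4%), with a median log2 ratio of -0.61. After median centring the split was 13 higher (18.8%) and 22 lower (31.9%) of 69. The rule sorted the 111 analytes of the 2 pairs into 22 that were called alike in both, 14 called with buffer alone, 4 called in opposite directions, 19 called after radiotherapy alone and 31 measured after radiotherapy but called in neither. The remaining 21 were not measured after radiotherapy. After centring the same sorting gave 20 that remained, 13 that closed, 2 that reversed and 19 that opened. Analytes in the same class on both scales numbered 15, 5, 1 and 9 for these classes in that order. The classes follow from the rule of size in each pair, and whether a ratio differed between treatments was tested only in the fit across all 8 membranes.

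Comparisons of irradiated with buffer-treated tumours of the same line depended on the scale. As deposited, 31 of 67 measured proteins were higher after radiotherapy in TC-1/IR (46.3%) and 2 lower (2.99%), beside 17 of 86 higher in TC-1 (19.8%) and 3 lower (3.49%). After centring, 12 of 60 were higher (20%) and 12 lower (20%) in TC-1/IR, beside 15 of 78 higher (19.2%) and 1 lower (1.28%) in TC-1. A value that is higher in irradiated than in buffer-treated TC-1/IR tumours is therefore given with its centred value where the call changes.

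**Figure D2:**
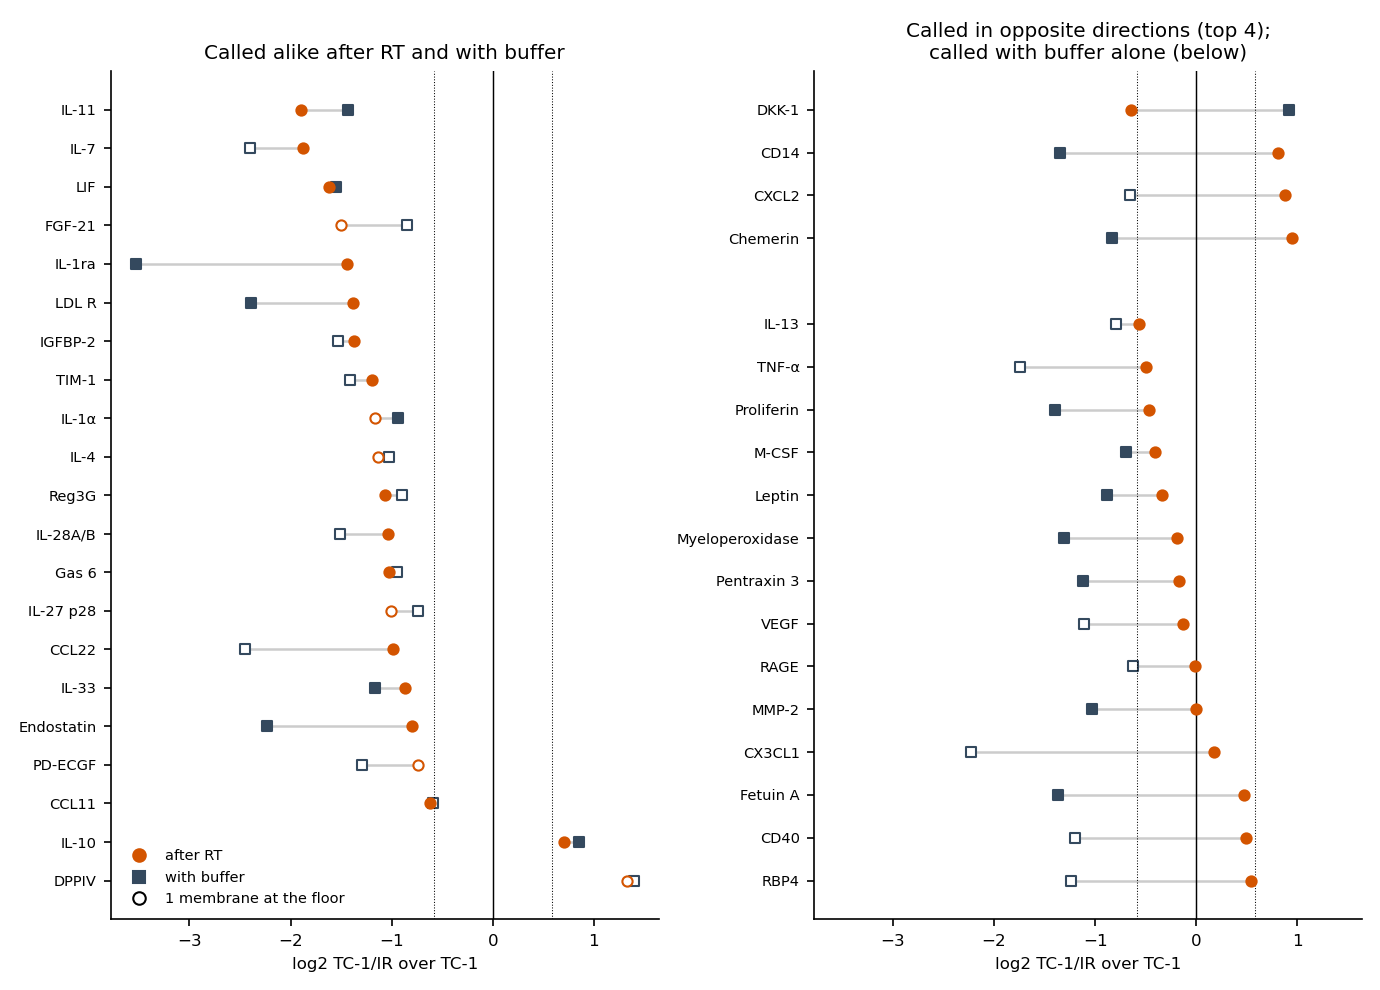
Log2 ratio of TC-1/IR over TC-1 after radiotherapy (circles) and with buffer (squares), as deposited, with 1 membrane per line and treatment, open symbols where 1 membrane was at the floor and dotted lines at 1.5-fold. The left panel holds 21 of the 22 proteins that remained, which lie on the same side of 0 in both pairs, and the right panel holds the 4 that reversed above the 14 that closed, which lie between -0.56 and 0.55 after radiotherapy and at -0.63 or lower with buffer.

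The 22 line differences that remained were 20 lower and 2 higher in TC-1/IR, with a median ratio of -1.05 log2 after radiotherapy and -1.35 log2 with buffer. The ratio was nearer 0 after radiotherapy for 13 of them and farther from 0 for 9. All 4 membranes were above the floor for 8 of the 22, and only for those is the size of both ratios measured. The 2 higher ones were IL-10 and DPPIV. IL-10 had a ratio of 0.70 log2 after radiotherapy and 0.85 ± 0.14 log2 with buffer, where it averaged 9.96 in TC-1/IR and 5.51 in TC-1. DPPIV was at least 2.5-fold higher after radiotherapy and at least 2.63-fold higher with buffer, where it averaged 6.54 in TC-1/IR and 1.29 in TC-1.

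Some of the differences that remained were smaller after radiotherapy as deposited. IL-1ra was 2.72-fold lower after radiotherapy and 11.5-fold lower with buffer, where it averaged 4.13 in TC-1/IR and 47.7 in TC-1. The 2 ratios differed by 2.09 ± 0.27 log2. IL-1ra was 4.76-fold higher in irradiated than in buffer-treated TC-1/IR tumours and 1.12-fold apart in TC-1 tumours. Endostatin, an angiogenesis inhibitor cleaved from collagen XVIII, averaged 26.5 in TC-1/IR RT and 46.0 in TC-1 RT (-0.80 log2), against 10.3 in TC-1/IR and 48.5 in TC-1 with buffer (-2.24 log2). CCL22, a ligand of CCR4 on regulatory and type 2 helper T cells, was 1.99-fold lower after radiotherapy and at least 5.48-fold lower with buffer. LDL R was 2.61-fold lower after radiotherapy and 5.24-fold lower with buffer. For IL-1ra, endostatin, CCL22 and LDL R alike, the TC-1/IR tumours met the rule for higher values after radiotherapy than with buffer, and the TC-1 tumours did not. After centring this held for IL-1ra (2.66-fold) and CCL22 (1.62-fold), and not for endostatin (1.44-fold) or LDL R (1.07-fold). The centred line ratio of LDL R was -1.52 log2 after radiotherapy and -1.62 log2 with buffer.

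As deposited, other line differences were of like size in both pairs. LIF differed between the pairs by -0.07 ± 0.12 log2 and IGFBP-2 by 0.16 ± 0.15 log2, and IGFBP-2 lay under the floor in TC-1/IR tumours given buffer. After centring LIF stood at -1.74 log2 after radiotherapy and -0.78 log2 with buffer, a difference of -0.96 ± 0.12 log2. IL-33 was higher after radiotherapy than with buffer in both lines as deposited, 2.42-fold in TC-1/IR and 1.97-fold in TC-1, and after centring in TC-1 (2.05-fold) and not in TC-1/IR (1.35-fold, not called). Its line ratio was -0.87 log2 after radiotherapy and -1.16 log2 with buffer. After centring the buffer ratio of IL-33 was -0.40 log2 and did not meet the rule, so IL-33 counted as a difference that opened on that scale.

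DKK-1 alone was called in opposite directions both as deposited and after centring. DKK-1 is a secreted antagonist of Wnt signalling that binds the co-receptor LRP6. Its spots read 4.72 and 4.92 in TC-1/IR RT against 7.37 and 7.72 in TC-1 RT, 1.57-fold lower or -0.65 ± 0.04 log2. With buffer it averaged 8.70 in TC-1/IR and 4.62 in TC-1, 1.88-fold higher or 0.91 ± 0.11 log2. The 2 lines moved apart in opposite ways, with TC-1/IR 1.80-fold lower and TC-1 1.63-fold higher after radiotherapy than with buffer. After centring the ratios were -0.78 log2 after radiotherapy and 1.68 log2 with buffer. The reversal held in 8 of the 9 ways of processing and did not hold with a 2-fold threshold. In the pair given IL-7 without radiation, DKK-1 was also lower in TC-1/IR as deposited (-1.16 ± 0.23 log2).

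CD14, chemerin and CXCL2 reversed in the other direction as deposited, being higher in TC-1/IR after radiotherapy and lower with buffer. CD14 averaged 51.8 in TC-1/IR and 132 in TC-1 with buffer (-1.34 ± 0.02 log2), so that its 2 line ratios differed by 2.15 ± 0.03 log2. Chemerin averaged 4.24 in TC-1/IR and 7.57 in TC-1 with buffer (-0.84 ± 0.13 log2). CXCL2 averaged 0.695 in TC-1/IR and 3.92 in TC-1 with buffer, at least 1.57-fold lower. In each of the 3 the TC-1/IR tumours were higher after radiotherapy than with buffer, 3.19-fold for CD14, 3.29-fold for chemerin and at least 3.18-fold for CXCL2. After centring these differences were 1.79-fold, 1.84-fold and at least 2.45-fold and met the rule. The TC-1 tumours did not meet the rule for any of them. After centring the ratio with buffer was -0.58 log2 for CD14, -0.07 log2 for chemerin and -0.36 log2 for CXCL2. None of these met the rule, while all 3 proteins stayed higher after radiotherapy. The reversal held in 7 of the 9 ways of processing for CD14 and for chemerin, and in 4 of the 9 for CXCL2. In the pair given IL-7 without radiation, CD14 was also higher in TC-1/IR as deposited, averaging 179 against 100 in TC-1 (0.83 ± 0.01 log2). There chemerin did not meet the rule and CXCL2 was lower in TC-1/IR. A higher CD14 in TC-1/IR was thus not particular to the irradiated pair.

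**Figure D3:**
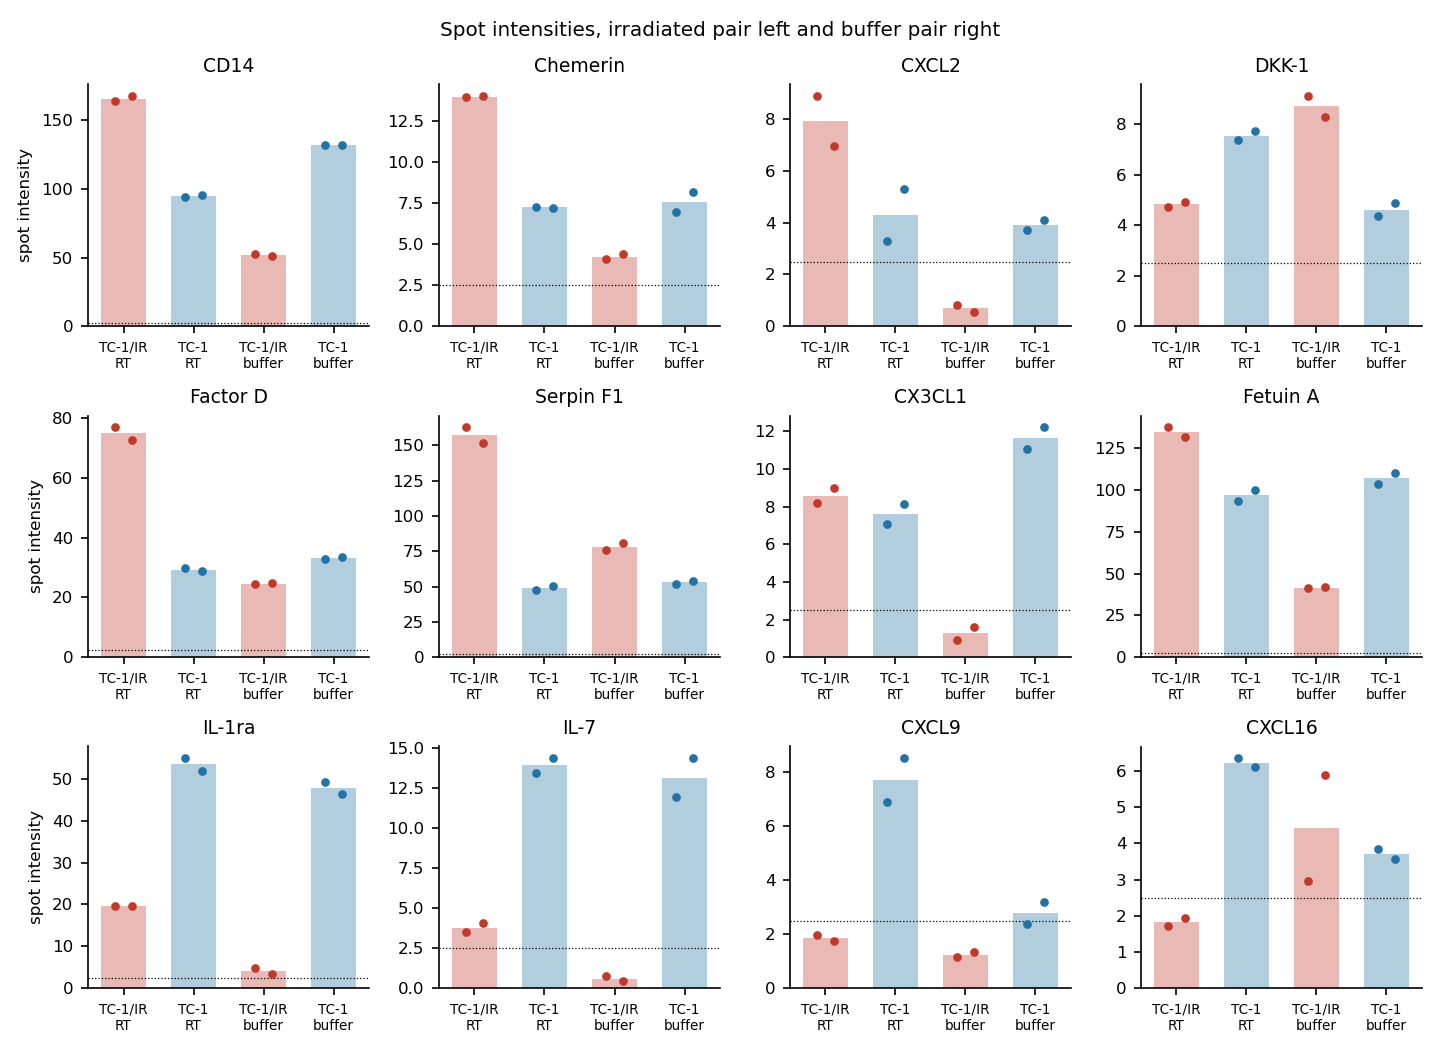
Intensity of each duplicate spot (points, linear scale from 0) with its average (bars) and the floor (dotted line) for proteins that remained, closed, reversed or opened, on the membranes of TC-1/IR RT, TC-1 RT, TC-1/IR buffer and TC-1 buffer. For CD14 the TC-1/IR spots lie above those of TC-1 after radiotherapy and below them with buffer, and for DKK-1 the order is the other way round.

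CXCL16 reversed after centring and opened as deposited. It reversed in 2 of the 9 ways of processing and opened in 6. After radiotherapy it was lower in TC-1/IR on both scales, at -1.32 log2 as deposited and -1.08 log2 centred, with TC-1/IR under the floor. With buffer it averaged 4.42 in TC-1/IR and 3.70 in TC-1 (0.26 ± 0.48 log2 as deposited and 1.02 log2 centred). As deposited its buffer spots overlapped, at 2.97 and 5.88 in TC-1/IR against 3.83 and 3.57 in TC-1. Like DKK-1, CXCL16 moved in opposite directions in the 2 lines, at least 1.78-fold lower in TC-1/IR and 1.68-fold higher in TC-1 after radiotherapy.

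As deposited, all 14 differences that closed were lower in TC-1/IR with buffer. Their median ratio was -0.15 log2 after radiotherapy and -1.16 log2 with buffer. For 10 of the 14, TC-1/IR tumours were higher after radiotherapy than with buffer, beside 46.3% of all measured proteins. For 3, TC-1 tumours were lower after radiotherapy, beside 3.49% of all measured. CX3CL1 and TNF-α did both. The medians and counts come from the same membranes that define the class, so they describe it and add no separate support. After centring, the 13 that closed had been 7 higher and 6 lower with buffer, with a median ratio of 0.21 log2 after radiotherapy and 0.66 log2 with buffer. For 4 of those 13 TC-1/IR tumours were higher after radiotherapy (20% of all measured). For 3, TC-1 tumours were higher (19.2% of all measured), and for 0 lower (1.28% of all measured). CX3CL1, or fractalkine, binds CX3CR1 on monocytes, NK cells and T cells. Its averages were 8.59 in TC-1/IR RT and 7.60 in TC-1 RT (0.18 ± 0.12 log2), against 1.28 in TC-1/IR and 11.7 in TC-1 with buffer, at least 4.68-fold lower.

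Fetuin A, an abundant liver glycoprotein of plasma, averaged 135 in TC-1/IR RT and 96.9 in TC-1 RT (0.47 ± 0.06 log2), against 41.5 in TC-1/IR and 107 in TC-1 with buffer (-1.37 ± 0.05 log2). Myeloperoxidase, the neutrophil granule enzyme, averaged 7.96 in TC-1/IR RT and 9.11 in TC-1 RT, against 10.2 in TC-1/IR and 25.3 in TC-1 with buffer. In TC-1 tumours myeloperoxidase was 2.78-fold lower after radiotherapy than with buffer, and in TC-1/IR tumours it did not meet the rule as deposited. After centring myeloperoxidase was lower after radiotherapy in both lines, 2.30-fold in TC-1/IR and 2.68-fold in TC-1. TNF-α averaged 3.79 in TC-1/IR RT and 5.34 in TC-1 RT (-0.50 ± 0.32 log2), against 0.80 in TC-1/IR and 8.31 in TC-1 with buffer, at least 3.34-fold lower. The co-stimulatory receptor CD40 averaged 9.61 in TC-1/IR RT and 6.84 in TC-1 RT, against 0.68 in TC-1/IR and 5.71 in TC-1 with buffer. MMP-2, a gelatinase, averaged 15.0 in both irradiated lines, against 8.84 in TC-1/IR and 18.1 in TC-1 with buffer. Of the 14, the 5 that closed on both scales were CX3CL1, fetuin A, CD40, RBP4 and VEGF. CD40 and RBP4 each closed in 7 of the 9 ways of processing. With the first spots alone CD40 opened and RBP4 reversed. The irradiated ratio was 0.49 ± 0.52 log2 for CD40, and 0.55 log2 for RBP4, just short of a higher call.

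The 19 differences that opened were 7 higher and 12 lower in TC-1/IR after radiotherapy. The 7 higher ones were Serpin F1, factor D, osteopontin, pentraxin 2, IGFBP-6, tissue factor and CCL3 with CCL4. As deposited, Serpin F1, factor D and pentraxin 2 were also called higher in the pair given IL-7 without radiation. Averages there were 158 in TC-1/IR and 66.4 in TC-1 for Serpin F1, and 83.5 in TC-1/IR and 47.7 in TC-1 for factor D. Osteopontin, IGFBP-6, tissue factor and CCL3 with CCL4 did not meet the rule in that pair. Several of the 7 were close to the rule with buffer, as pentraxin 2 was at 0.55 log2 and tissue factor at 0.49 log2. Osteopontin averaged 88.8 in TC-1/IR and 127 in TC-1 with buffer (-0.51 log2, short of the rule), and its 2 ratios differed by 1.25 ± 0.02 log2. After centring its buffer ratio was 0.26 log2 and the 2 ratios differed by 0.36 ± 0.02 log2. CCL3 with CCL4 averaged 0.93 in TC-1/IR and 2.44 in TC-1 with buffer, both under the floor.

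Among the 12 lower ones, CXCL9 was 2.75-fold higher after radiotherapy than with buffer in TC-1 tumours and under the floor at both in TC-1/IR tumours. Its averages with buffer were 1.24 in TC-1/IR and 2.79 in TC-1. Interferon-γ averaged 3.65 in TC-1 with buffer and was under the floor in TC-1/IR tumours of both treatments. Chitinase 3-like 1, CD160, CCL6 and amphiregulin were likewise higher after radiotherapy than with buffer in TC-1 tumours, by at least 1.51-fold for CD160 to at least 2.23-fold for amphiregulin, and did not meet the rule in TC-1/IR. After centring amphiregulin alone of these 4 was still called in TC-1. IL-12, a cytokine of dendritic cells and macrophages, was 1.55-fold lower in TC-1/IR after radiotherapy and 1.37-fold lower with buffer, with all 4 membranes above the floor. The 9 that opened on both scales were factor D, osteopontin and CCL3 with CCL4, which were higher, and CXCL9, interferon-γ, G-CSF, GDF-15, IL-12 and amphiregulin, which were lower. With a floor of 0.5% CXCL9, interferon-γ, G-CSF, GDF-15 and amphiregulin were called lower in both pairs and counted as remained, as were the first 4 with a floor set per membrane, so their place among the differences that opened depended on the floor. Of the 9, factor D alone opened under all 9 ways of processing.

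**Figure D4:**
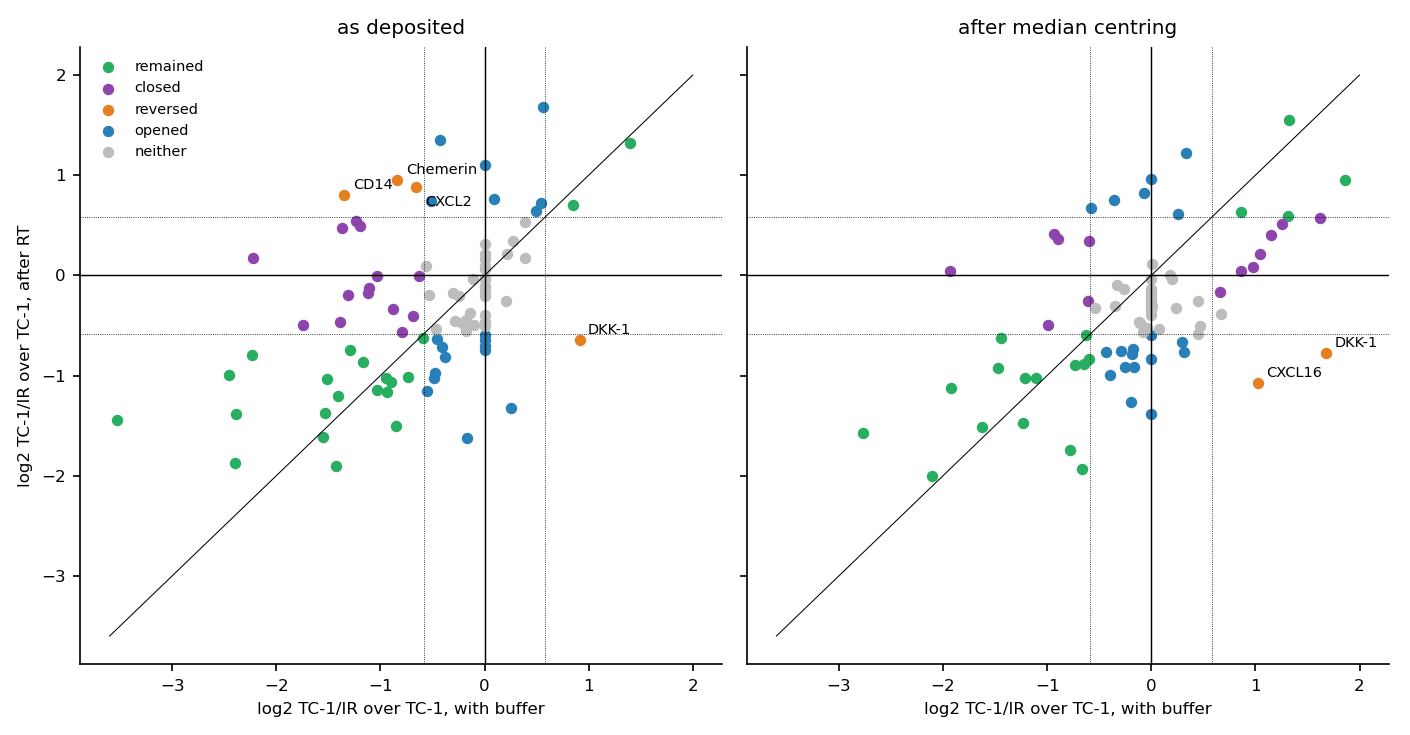
Log2 ratio of TC-1/IR over TC-1 after radiotherapy (vertical axis) against the same ratio with buffer (horizontal axis), as deposited and after median centring, with 1 point per analyte coloured by class and dotted lines at 1.5-fold. Analytes at the floor on both buffer membranes are drawn at 0 on the horizontal axis, and as deposited CD14, chemerin and CXCL2 lie in the upper left while DKK-1 lies in the lower right.

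Proteins called in neither pair included some whose level was higher after radiotherapy than with buffer in both lines as deposited. CXCL10 was 2.29-fold higher in TC-1/IR and 2.19-fold higher in TC-1. CCL5, another T cell attractant, differed by at least 2.19-fold in TC-1/IR and at least 2.26-fold in TC-1, higher after radiotherapy, with irradiated averages of 5.46 in TC-1/IR and 5.62 in TC-1. The fibrinolysis inhibitor Serpin E1 was 2.5-fold higher in TC-1/IR and 2.25-fold higher in TC-1. The line ratio of CXCL10 was 0.34 log2 after radiotherapy and 0.28 log2 with buffer, and that of Serpin E1 was 0.53 log2 after radiotherapy and 0.39 log2 with buffer. After centring CXCL10 (1.28-fold) and Serpin E1 (1.39-fold) were not called between irradiated and buffer-treated TC-1/IR tumours. Their centred line ratios were 0.21 log2 after radiotherapy and 1.04 log2 with buffer for CXCL10, and 0.41 log2 after radiotherapy and 1.15 log2 with buffer for Serpin E1, so that both counted as closed on that scale.

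Grouped by function, IL-1, IL-6 and TNF family cytokines were lower in irradiated TC-1/IR tumours for 6 of 7 measured members and higher for 0, with a median of -1.16 log2, beside 36.7% lower and a median of -0.40 log2 over all 90. The exception among the 7 was TNF-α. With buffer, 6 of the 7 were also lower, beside 51.4% of all measured, with a median of -1.43 log2. After centring 6 of 7 were lower after radiotherapy, with IL-1β as the exception, and 4 of 7 with buffer. Epithelial stress and repair factors had 7 of 8 lower after radiotherapy (36.7% of all measured), with a median of -0.95 log2, and EGF as the exception. With buffer 4 of 7 were lower, near the 51.4% of all measured, and 1, DKK-1, was higher. After centring 7 of 8 were lower after radiotherapy (38.3% of all measured) and 2 of 6 with buffer (31.9% of all measured). These groups were drawn up with earlier results of the same membranes known, so their counts describe them and add no separate support.

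As deposited, proteins of plasma and adipose tissue had group medians that were negative with buffer and positive after radiotherapy. Over all measured proteins the median was -0.61 log2 with buffer (51.4% lower) and -0.40 log2 after radiotherapy (36.7% lower). The 6 measured liver plasma proteins had a median of 0.39 log2 after radiotherapy, with 1 higher and 1 lower, whereas the 4 measured with buffer had a median of -1.30 log2, with 3 lower. The 6 measured adipose products and Pref-1 had a median of 0.25 log2 after radiotherapy, with chemerin and factor D higher, and -0.84 log2 with buffer, with 3 of 5 lower. Angiogenic factors and inhibitors had a median of -0.12 log2 after radiotherapy over 11, with Serpin F1 higher and endostatin and PD-ECGF lower, and -1.11 log2 with buffer over 7. After centring the medians with buffer were -0.30 log2 for the plasma proteins, -0.07 log2 for the adipose products and -0.30 log2 for the angiogenic factors. The centred median over all measured proteins was -0.18 log2 with buffer. Lower with buffer were then 3 of 6 plasma proteins, 1 of 5 adipose products and 4 of 8 angiogenic factors, beside 31.9% of all measured.

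Chemokines for T and NK cells had 1 of 7 higher after radiotherapy, CCL3 with CCL4, and 2 lower, CXCL9 and CXCL16, with a median of -0.04 log2. These counts lay near the shares over all measured proteins, 13.3% higher and 36.7% lower. The measured common gamma chain cytokines had 2 of 3 lower in both pairs, IL-4 and IL-7. Of all measured proteins, 36.7% were lower after radiotherapy and 51.4% with buffer. The 2 coagulation and fibrinolysis proteins, tissue factor and Serpin E1, had a median of 0.59 log2 after radiotherapy and 0.44 log2 with buffer, and the first of them was called higher after radiotherapy.

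**Figure D5:**
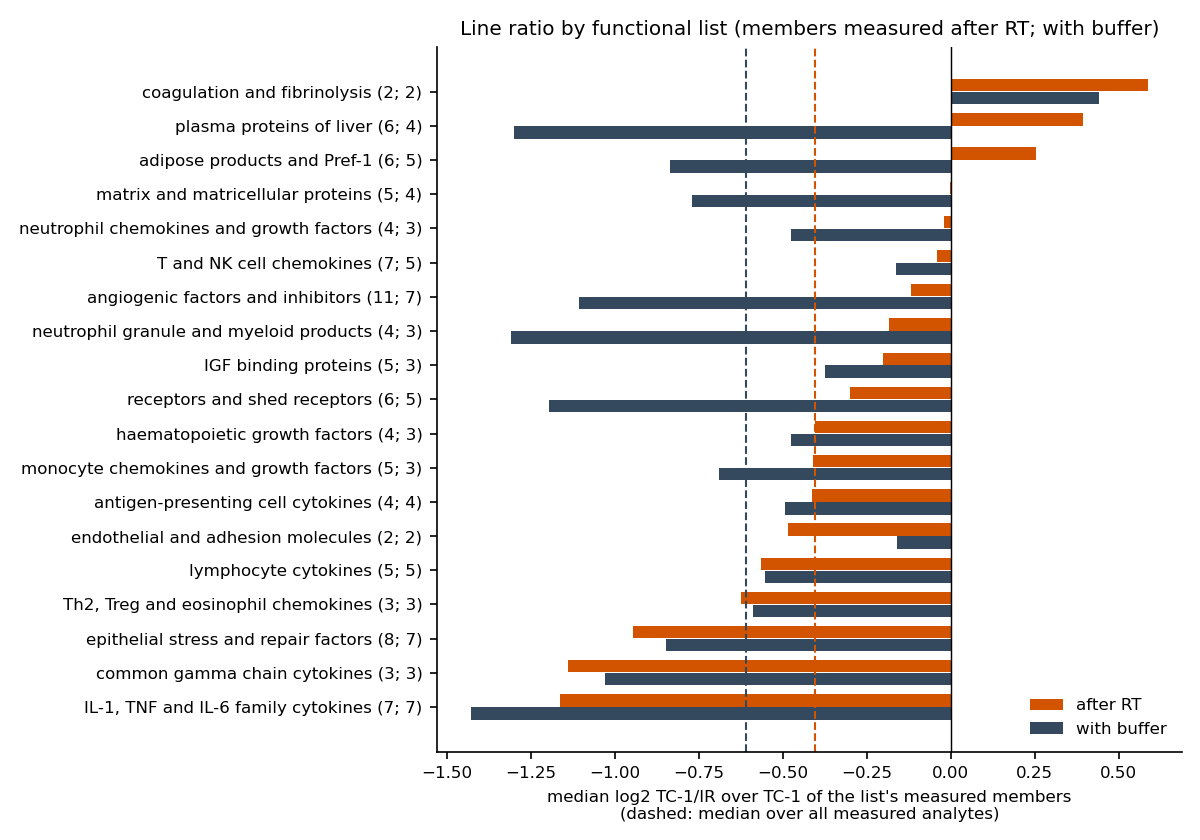
Median log2 ratio of TC-1/IR over TC-1 for each functional group of analytes, after radiotherapy and with buffer, as deposited, over the members measured in each pair. IL-1, TNF and IL-6 family cytokines lie at -1.16 after radiotherapy and -1.43 with buffer, while the liver plasma proteins lie at 0.39 after radiotherapy and -1.30 with buffer.

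Markers of other cells that a tumour lysate can hold were themselves members of the functional groups. Their sums therefore repeat the same values and add no separate support. The 6 neutrophil and myeloid markers (CD14, myeloperoxidase, pentraxin 3, chitinase 3-like 1, lipocalin-2 and MMP-9) summed to 184 in TC-1/IR RT and 118 in TC-1 RT, and to 66.4 in TC-1/IR buffer and 168 in TC-1 buffer. CD14 made up most of each sum, and lipocalin-2 and MMP-9 were under the floor on all 4 membranes. The 4 adipose markers summed to 82.2 in TC-1/IR RT and 40.5 in TC-1 RT, and to 29.1 in TC-1/IR buffer and 41.7 in TC-1 buffer. Adiponectin was at or near the floor and resistin under it on all 4 membranes, so these sums came mainly from factor D. The 5 liver plasma markers summed to 319 in TC-1/IR RT and 211 in TC-1 RT, and to 214 in TC-1/IR buffer and 229 in TC-1 buffer, with complement C5 and C-reactive protein under the floor on all 4. The 5 endothelial markers summed to 6.11 in TC-1/IR RT and 10.4 in TC-1 RT, and to 4.34 in TC-1/IR buffer and 7.97 in TC-1 buffer, and 3 of them (C1q R1, endoglin and ICAM-1) were under the floor on all 4 membranes. The 3 platelet markers summed to 8.61 in TC-1/IR RT and 10.1 in TC-1 RT, and to 4.20 in TC-1/IR buffer and 7.74 in TC-1 buffer, with P-selectin under the floor on all 4. Whether blood or other cells in the lysates had a part in the line differences was not tested.

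The pair given radiotherapy with IL-7 shares no membrane with the pair given radiotherapy alone and asks whether the line differences recur under radiation. In it, TC-1/IR tumours were higher in 2 of 78 measured proteins (2.56%) and lower in 44 (56.4%). After centring the split was 7 higher (8.43%) and 29 lower (34.9%) of 83. The analyte averages summed to 739 for TC-1/IR RT and IL-7 and 1173 for TC-1 RT and IL-7, and the membrane medians differed by -0.76 log2. Whether exposure differed between membranes was not tested. As deposited, of the 33 proteins lower after radiotherapy alone, 24 were also lower there, which is 72.7% of the 33 and 54.5% of the 44. The 24 included IL-11, IL-7, LIF, IL-1ra, LDL R, CXCL9 and interferon-γ. After centring, 21 of the 31 lower after radiotherapy alone were lower there (67.7% of the 31 and 72.4% of the 29), and LIF, LDL R and CXCL9 did not meet the rule in the pair with IL-7. Of the 12 higher ones, IL-10 and pentraxin 2 were also higher there, which is 16.7% of the 12 and both of the 2. CD14, CXCL2 and IGFBP-6 were lower in TC-1/IR in the pair with IL-7, and CCL3 with CCL4 was under the floor in both lines. After centring CXCL2 was still lower there, CD14 and IGFBP-6 did not meet the rule, and osteopontin, pentraxin 2 and Serpin F1 were higher in both pairs.

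As deposited, CD14 averaged 38.7 in TC-1/IR and 94.7 in TC-1 after radiotherapy with IL-7 (-1.29 ± 0.03 log2), beside 0.80 log2 after radiotherapy alone. After centring CD14 stood at -0.53 log2 in the pair with IL-7. Serpin F1 averaged 54.7 in TC-1/IR and 48.3 in TC-1 with the combination (0.18 ± 0.01 log2), and factor D averaged 26.3 in TC-1/IR and 35.8 in TC-1 (-0.44 ± 0.05 log2). After centring Serpin F1 stood at 0.94 log2 and met the rule, and factor D stood at 0.32 log2, above 0. DKK-1 averaged 4.88 in TC-1/IR and 6.05 in TC-1 (-0.31 ± 0.39 log2, and 0.45 log2 centred), without meeting the rule. CX3CL1 averaged 0.98 in TC-1/IR and 19.4 in TC-1, at least 7.79-fold lower. Of the 14 differences that closed after radiotherapy alone, 10 were lower in TC-1/IR with the combination, beside 56.4% of all measured proteins. Of the 22 that remained, 18 were lower and 1 was higher (2.56% of all measured), all as deposited. After centring 34.9% of all measured proteins were lower in the pair with IL-7.

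Whether the line difference changed with radiotherapy was tested across all 8 membranes with limma, as a line by radiotherapy interaction. It set the 2 irradiated pairs, with and without IL-7, against the buffer pair and the pair given IL-7 alone. The test used log2 values of 75 analytes, each above the floor on 4 or more membranes. None of the 75 passed an adjusted p of 0.05 (0%), none had an unadjusted p under 0.05, and the test had 2 residual degrees of freedom. The smallest p was 0.20, for RBP4, a carrier of retinol, with an interaction of 1.13 ± 0.80 log2 (SE) and an adjusted p of 0.999 by limma. CXCL2 followed at 1.01 ± 0.75 log2, CD40 at 1.03 ± 0.80 log2, CCL19 at 0.85 ± 0.72 log2 and leptin at 0.78 ± 0.68 log2, all with an adjusted p of 0.999 by limma. For CD14 the interaction was 0.01 ± 1.18 log2 and for DKK-1 -0.36 ± 0.75 log2. After median centring 0 of 72 passed and 3 had an unadjusted p under 0.05. These were IL-1α at -0.93 ± 0.25 log2, Pref-1 at -0.77 ± 0.26 log2 and IL-33 at -0.77 ± 0.26 log2, with an adjusted p of 0.943 by limma for each. The median SE of an interaction was 0.68 log2 as deposited, which limits the changes in a line difference that these membranes could show.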

How the data were processed

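Tumour lysates were probed on an antibody array, and the authors deposited linear intensities of the spots. Not given in the sources used here are the image software and any background subtraction. Lysates were cleared at 10000 g for 5 min, per the labels' protocols. Duplicate spots were averaged, values under 2.49 (1.0% of the highest average, 249) were set to it, and log2 ratios were taken as in the report. Spot errors were propagated to an SE. Centring subtracted each membrane's median log2 over 28 analytes before the floor was applied. Ratios were computed with Python 3.11.15, numpy 2.4.6 and pandas 2.3.3, and the interaction with limma 3.58.1 in R 4.3.3 (terms line, radiotherapy, IL-7, line by radiotherapy and line by IL-7), with Benjamini-Hochberg adjustment. The 9 ways of processing were the one described and others in centring, floor, fold threshold or spots used. Letting spots overlap changed no call in the irradiated or buffer pair, so that way repeats the main result in every count out of 9. The steps were tested on simulated data. With 1 membrane a group, the number of membranes limits the precision.

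Named are analytes called between the irradiated or the buffer membranes, the 5 smallest interaction p and members of 20 functional groups; for the 10 largest differences in each direction and for reversals both pairs of membranes are given. The members and lists were chosen with earlier results of these data known. All 111 analytes matched a RefSeq symbol. The values of 1 analyte are counted but not reported here.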

Additional observations from a re-analysis of the deposited data

Results flagged for a closer look

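The following 5 line differences had opposite directions after radiotherapy and with buffer, with duplicate spots apart in each pair on the scale given. For CXCL16 with buffer the spots of the 2 lines overlapped as deposited. The difference between the 2 ratios was not tested for any single pair of membranes. The log2 ratio of TC-1/IR over TC-1 was 0.80 after radiotherapy and -1.34 with buffer for CD14. It was 0.95 after radiotherapy and -0.84 with buffer for chemerin, and 0.88 after radiotherapy and -0.65 with buffer for CXCL2. DKK-1 ran the other way, at -0.65 after radiotherapy and 0.91 with buffer. After median centring CXCL16 was at -1.08 after radiotherapy and 1.02 with buffer, and DKK-1 at -0.78 after radiotherapy and 1.68 with buffer. Of the 9 ways of processing, reversal held in 8 for DKK-1, 7 for CD14, 7 for chemerin, 4 for CXCL2 and 2 for CXCL16. In the pair given IL-7 without radiation, CD14, DKK-1 and CXCL16 were called in the same direction as after radiotherapy as deposited. There CXCL2 was called in the direction of the buffer pair, and chemerin was not called.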

How the results depend on the processing

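Each result was recomputed with other settings, of which 2 (spots allowed to overlap, and analytes above the floor on all 4 membranes only) were chosen after seeing the data. No named line ratio after radiotherapy that was called changed its direction under any setting. In other comparisons some did with centring. With buffer, M-CSF was called lower in TC-1/IR at -0.69 log2 as deposited and stood at 0.07 log2 after centring. Between irradiated and buffer-treated TC-1/IR tumours, MMP-2 was called at 0.76 log2 as deposited and stood at -0.08 log2 after centring. A 2-fold threshold left 4 higher and 18 lower proteins after radiotherapy, with 10 differences that remained, 0 that reversed and 12 that opened. A floor of 2% left 12 lower proteins, with 10 that remained, 7 that closed and 9 that opened. A floor of 0.5% gave 36 that remained and 7 that reversed. Centring gave 2 that reversed. Over analytes above the floor on all 4 membranes, 8 remained, 7 closed and 7 opened. The other counts after radiotherapy and of the classes were within 1.5 times the reported ones. Centring also changed the buffer pair to 13 higher and 22 lower, against 3 and 37 as deposited, and the pair with radiotherapy and IL-7 to 7 higher and 29 lower, against 2 and 44. The limma interaction called 0 analytes under each of its settings, with 3 unadjusted p under 0.05 after centring and 0 otherwise. Where a floor or threshold moved a count, the rule's own construction did so, and for centring the cause was not tested. The signal over the floor limits the 26 proteins measured in TC-1 alone, whose ratios are bounds. No paired analysis was possible because there was a single membrane for every group and no label links animals across groups.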

Other observations

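The direction of the calls varied with brightness. When the 90 proteins measured after radiotherapy were split into 3 sets of 30 by their average intensity on the 2 irradiated membranes, the dimmest set held 0 higher and 10 lower calls, with a median log2 ratio of -0.42. The middle set held 3 higher and 14 lower calls, with a median of -0.55. The brightest set held 9 higher and 9 lower calls, with a median of 0.09, and the same 30 proteins had a median of -1.07 with buffer. The 5 brightest proteins made up 55.9% of the summed intensity of the TC-1/IR RT membrane and 38.5% of that of the TC-1 RT membrane.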
